A study of Gallus gallus with 9 samples.

Results

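Amino acid transporters of 7 solute carrier families (SLC1, SLC3, SLC6, SLC7, SLC36, SLC38 and SLC43) were examined in the liver of adult laying hens. Members were the loci of the count table whose gene name has one of these family prefixes followed by a number, and 53 of the 22082 loci met this rule, with 47 distinct gene names. Liver RNA came from 9 Isa Brown hens of 55 weeks of age, 3 in each of 3 groups. Albumen-deprived hens hatched from eggs in which 3 ml of albumen had been exchanged for sterile saline through a drilled hole after 1 day of incubation. Sham-manipulated hens hatched from eggs that were disinfected, drilled and sealed without that exchange, so that saline injection was not part of the sham treatment. Non-manipulated hens hatched from untouched eggs. All hens were kept in 1 room on the same diets, and each library came from 1 hen. The comparisons ask whether a shortage of egg protein before hatching leaves a mark on hepatic amino acid transport in adult life.

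Amino acids enter and leave hepatocytes through carriers, since the plasma membrane hardly lets them pass. The SLC38 and SLC1 carriers and most SLC6 carriers draw on the sodium gradient, and some SLC36 carriers on protons. Many SLC7 carriers instead exchange one amino acid for another and need a heavy chain of the SLC3 family to reach the membrane. The liver takes up alanine, glutamine and other amino acids from portal blood for protein synthesis and gluconeogenesis, and in laying hens it also makes the yolk proteins. The SLC6 family further holds carriers of taurine, betaine, creatine, noradrenaline and serotonin, which belong to the family by sequence although their substrates are not building blocks of protein.

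Of the 53 loci, 27 passed the filter on low counts (above 1 CPM in 3 or more libraries, where CPM are read counts relative to the depth of a library) and were tested, whereas 26 did not reach that level. The tested loci comprised 8 of 11 SLC38, 7 of 12 SLC7, 6 of 18 SLC6, 2 of 8 SLC1, 2 of 2 SLC43, 1 of 1 SLC36 and 1 of 1 SLC3 loci. Total counts ran from 13720872 to 21747636 per hen, and all members together took between 0.179% and 0.288% of them. No read was counted in any hen for 10 loci, namely SLC1A3, SLC6A5, SLC6A7, SLC6A11, SLC6A18, SLC6A20, SLC7A14, SLC38A8, and 1 of the 2 loci each of SLC6A12 and SLC38A10. A count of 0 allows up to 3 counts, or 0.138 to 0.219 CPM depending on the library, and covers counting error only. The SLC6A12 and SLC38A10 loci without reads each lie within the span of the other locus of that name. Reads on both loci were left out, so for these 2 loci a count of 0 need not bound the level. The other 16 loci below the filter had at least 1 count, and 7 of them had no more than 3 counts in any hen. Among these 16, SLC7A11, the cystine and glutamate exchanger, was the most counted with 3 to 25 counts per hen, and SLC7A9, the light chain that pairs with SLC3A1 in the mammalian kidney, had 2 to 8 counts. The glutamate transporter SLC1A2, which mammalian liver uses around central veins, had 2 to 10 counts.

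The RNA carried the profile of liver. All 13 hepatocyte marker loci found by name were tested, their summed level was 152306 to 238761 CPM per hen, and none had a P-value under 0.05 in any comparison. Markers of erythrocytes summed to 1.74 to 3.81 CPM, but only 6 of 14 listed gene names were found. Of their 7 loci, 1 passed the filter, so this sum does not measure the blood in the samples. Of 8 tested heterophil granule loci, 4 (CATHL2, GAL1, GAL2 and GAL7) were lower in albumen-deprived hens than in sham-manipulated hens at an unadjusted P-value under 0.05, where 3.02% of all tested loci were. The median log2-fold change of the list was -1.33 in that comparison, -0.71 against non-manipulated hens and 0.81 for sham-manipulated over non-manipulated hens, where RSFR was higher (0.64, SE 0.21, unadjusted P-value under 0.05, as were 2.3% of all tested loci). Without sham-manipulated 2, GAL2 and GAL7 kept an unadjusted P-value under 0.05 (3.56% of all loci were lower), whereas GAL1 at -1.01 (SE 0.65) did not. Only 7 loci of the list were then tested, CATHL2 not among them. The summed level of that list was 30.7 to 43.9 CPM in non-manipulated, 37.5 to 90.1 CPM in sham-manipulated and 37.7 to 52.2 CPM in albumen-deprived hens, so that the groups overlapped, and the part of these cells in the differences below was not tested. The T and NK cell, B and plasma cell, macrophage, bile duct and endothelial lists had no locus with an unadjusted P-value under 0.05 in any comparison of all 9 hens. Of 8 tested stellate cell and fibroblast loci 1, LRAT, was lower in albumen-deprived hens than in both other groups. Of all tested loci, 3.02% were lower against sham-manipulated and 1.57% against non-manipulated hens. In whole liver, fewer cells of a type and less RNA per cell cannot be told apart.

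Transporter RNA in hen liver was dominated by 4 genes. Levels between genes are given as RPKM, which here are TMM-scaled CPM per kilobase of the locus. SLC38A4, a sodium-coupled carrier of small neutral and cationic amino acids known from mammalian liver, averaged 178 ± 70.8 RPKM (SD, n = 9 hens) and made up 45.3% of the summed RPKM of the members. SLC38A2, the system A carrier that mammalian cells raise when amino acids run short, averaged 52.8 ± 16.8 RPKM, and SLC38A5, which takes up glutamine and histidine with sodium in exchange for protons, 35.9 ± 9.30 RPKM. SLC7A2, the low-affinity cationic carrier of arginine and lysine, averaged 26.2 ± 5.77 RPKM. Together these 4 made up 74.5% of the summed level, and the 10 highest members 88.5%. SLC38A4 stood above 98.0% of all tested loci of the liver.

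**Figure D1:**
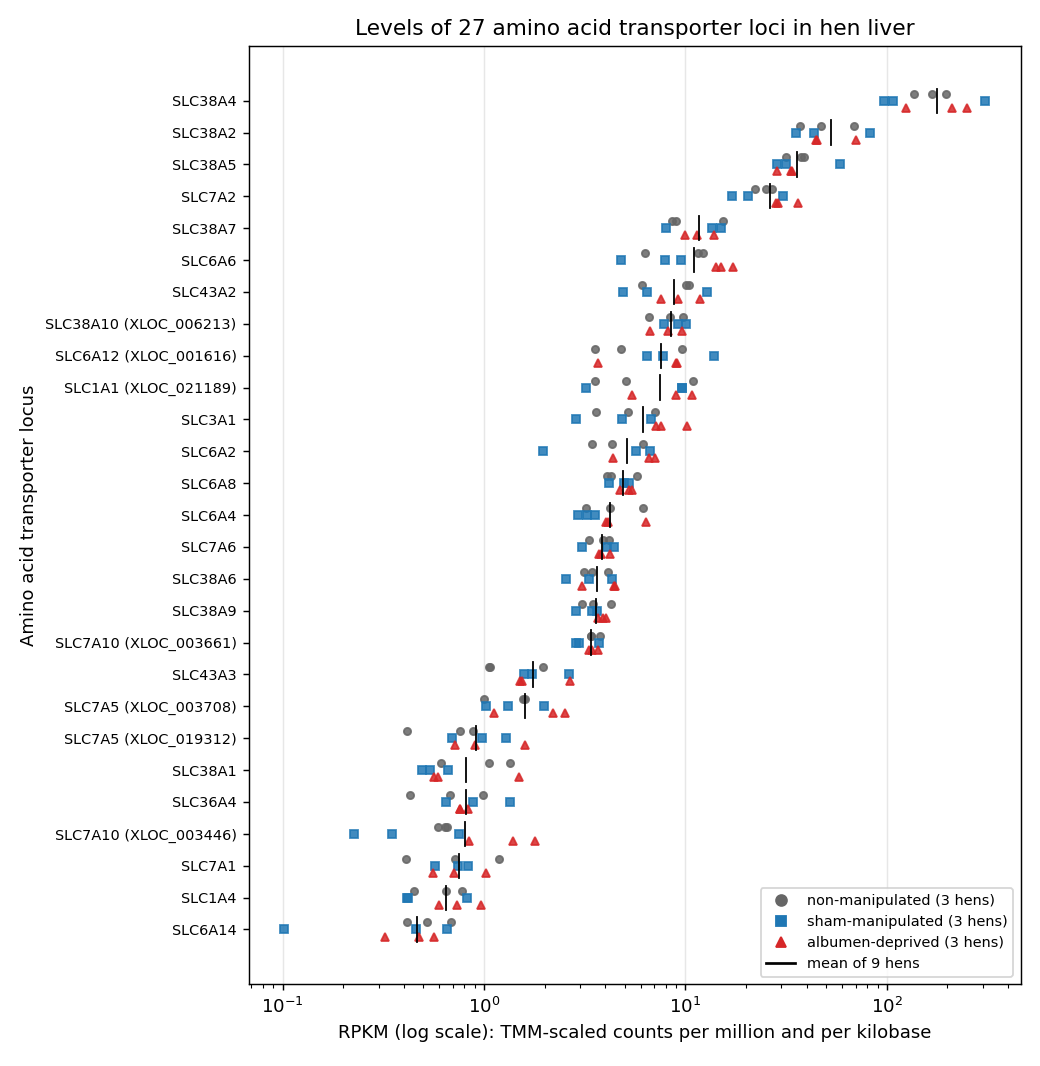
RPKM of each of the 27 tested transporter loci on a log axis, with 1 point per hen (3 non-manipulated, 3 sham-manipulated, 3 albumen-deprived) and a line at the mean of 9 hens. SLC38A4 lies apart at 96.4 to 309 RPKM, SLC38A2, SLC38A5 and SLC7A2 follow, and 7 loci average less than 1 RPKM.

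The order of the levels was clear for some neighbours. The lowest hen for SLC38A4 (96.4 RPKM) was above the highest for SLC38A2 (82.9 RPKM), and the lowest hen for SLC7A2 (17.1 RPKM) was above the highest for SLC38A7 (15.4 RPKM), although SLC6A6, the sixth in rank, reached 17.3 RPKM in its highest hen. Lower down, the lowest hen for the larger SLC7A10 locus (2.86 RPKM) was above the highest for SLC43A3 (2.67 RPKM). SLC38A2 and SLC38A5 overlapped, at 35.6 to 82.9 and 28.5 to 58.7 RPKM. From the fifth to the tenth rank, SLC38A7, SLC6A6, SLC43A2, SLC38A10, SLC6A12 and SLC1A1 averaged between 7.46 and 11.6 RPKM with ranges that overlapped from each to the next. In the authors' deposited FPKM values, which were normalized for GC content, SLC38A4 fell to a mean of 108 FPKM and SLC38A5 reached 72.2 FPKM, above the 70.3 FPKM of SLC38A2. The creatine transporter SLC6A8, whose locus has 65.6% GC, averaged 12.3 FPKM against 4.89 RPKM and took the place of SLC1A1 among the 10 highest.

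Among the families, SLC38 summed to 294 RPKM on average, SLC7 to 37.9, SLC6 to 33.4, SLC43 to 10.6, SLC1 to 9.20, SLC3 to 6.13 and SLC36 to 0.814 RPKM. No locus in the table bears the name SLC3A2, the heavy chain of most SLC7 light chains, nor SLC7A7, SLC7A8, SLC1A5, SLC36A1, SLC38A3 or SLC43A1, and these genes were not analysed here. SLC3A1 was therefore the heavy chain with values here. The median within-group SD of log2 CPM was 0.45 for the tested members and 0.26 for all tested loci.

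One hen, sham-manipulated 2, differed widely from the other sham-manipulated hens in the most abundant carriers. It was at least 1.5-fold above or below the median of the other 8 hens for 11 of 27 members, against 3 to 10 members in the other hens, and for 16.3% of all tested loci against 9.67% to 16.9%. It had the highest level of 5 members, against 1 to 6 in the other hens, and the lowest of 8, against 0 to 7. Against the median of the other 8 hens its level was 2.03-fold for SLC38A4, 1.85-fold for SLC38A2, 1.80-fold for SLC38A5 and 1.53-fold for SLC43A2, whereas it was 0.416-fold for SLC3A1, 0.402-fold for SLC6A6, 0.331-fold for SLC6A2 and 0.321-fold for 1 of the SLC7A10 loci. The summed RPKM of the members was 566 in this hen and 284 and 293 in the other sham-manipulated hens, against 344 to 398 in non-manipulated and 339 to 510 in albumen-deprived hens. Because of this hen, the counts of members called and the differences it moved most are also given without it. The hen was singled out by its values for these same members, so P-values from fits without it are descriptive only. The 3 albumen-deprived hens were the lowest hen for 0 of the 27 members, and for 10.9%, 10.2% and 8.97% of all tested loci.

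**Figure D2:**
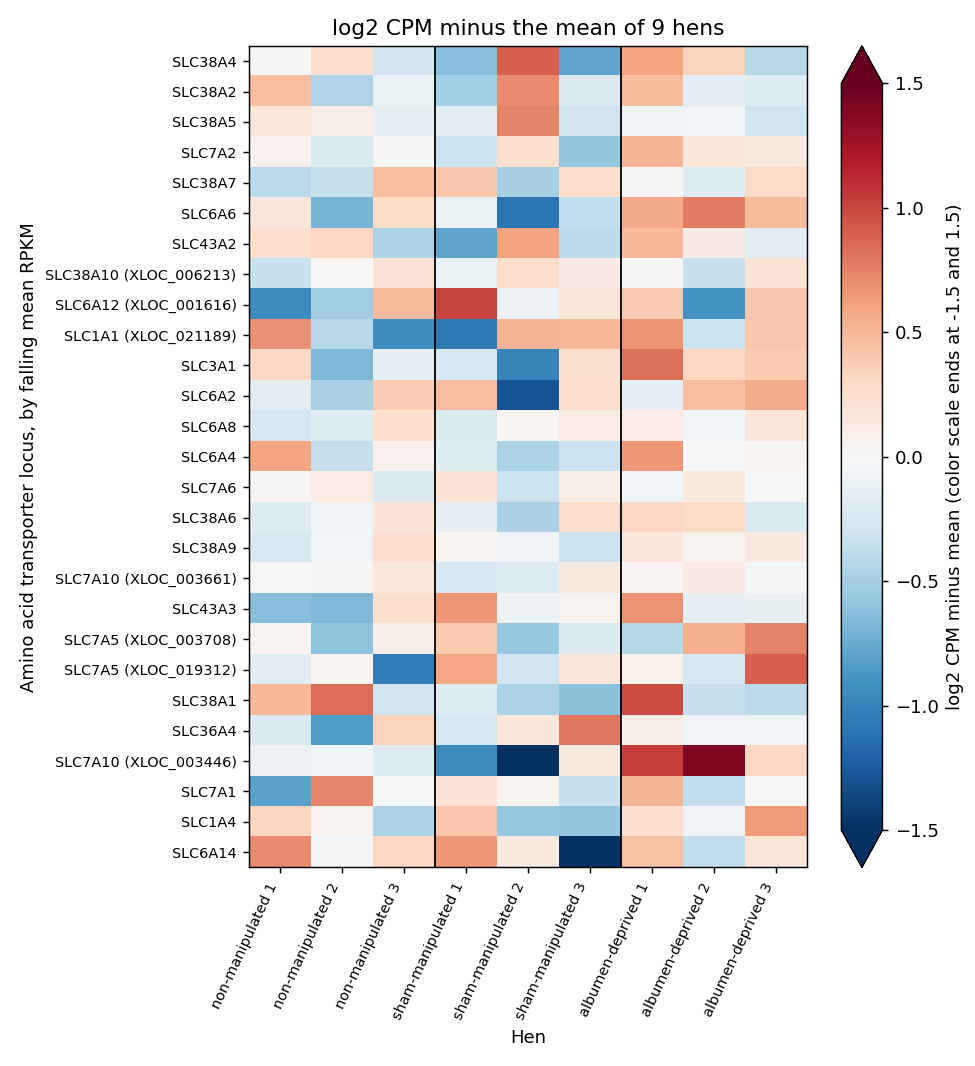
Level of each tested transporter locus (rows, by falling mean RPKM) in each hen (columns, black lines between groups), as log2 CPM minus the mean of 9 hens, blue below and red above the mean. The column of sham-manipulated 2 pairs high SLC38A4, SLC38A2 and SLC38A5 with low SLC6A6, SLC6A2, SLC3A1 and SLC7A10 (XLOC_003446), and SLC6A6 is above its mean in all 3 albumen-deprived hens.

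Group differences among the transporters were few. In albumen-deprived against sham-manipulated hens, 4 of 27 members (SLC7A10 at 1 of its loci, SLC6A6, SLC3A1 and SLC6A4) were higher at an unadjusted P-value under 0.05 and 0 were lower, where 4.11% of all tested loci were higher and 3.02% lower. In albumen-deprived against non-manipulated hens, 1 member was higher, the same SLC7A10 locus, and 0 were lower, against 1.66% and 1.57% of all loci. For sham-manipulated against non-manipulated hens the count was 0 of 27, also with DESeq2's Wald test, and 0 of 29 with limma on the authors' loci, against 2.3% higher and 2.98% lower among all loci. After Benjamini-Hochberg adjustment over the 12324 tested loci no member passed 0.05 in any comparison, with smallest adjusted P-values of 0.561, 0.99995 and 0.912 in edgeR's quasi-likelihood F-test, and neither DESeq2 nor limma gave an adjusted P-value under 0.05. No member met the stricter cut-off of the study, a P-value under 0.001 with a log2-fold change over 1, in the quasi-likelihood F-test. The study's own edgeR fit listed SLC6A6 by it in albumen-deprived against sham-manipulated hens. In the quasi-likelihood F-test 0.105%, 0.0487% and 0.0649% of all loci met this cut-off. In albumen-deprived against sham-manipulated hens SLC6A6 and the SLC7A10 locus met it with edgeR's likelihood ratio test (0.43% of all loci) and with DESeq2's Wald test (0.365%), and the SLC7A10 locus also without sham-manipulated 3 (0.172%). By a looser cut-off of P-value and fold change, the study also listed SLC3A1, SLC7A10 and SLC6A6, with the asparagine synthetase gene ASNS, under amino acid metabolism. That listing is not split by comparison or by SLC7A10 locus.

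All 3 comparisons use the same hens in pairs of groups, so their results are not independent of each other. In albumen-deprived against non-manipulated hens, 21 of 27 members had a log2-fold change above 0, compared with 51.5% of all loci, and the median was 0.16 for the members and 0.01 for all loci. In albumen-deprived against sham-manipulated hens it was 20 of 27 against 47.8%, with medians of 0.16 and -0.01. For sham-manipulated against non-manipulated hens it was 14 of 27 against 52%, with medians of 0.03 and 0.01. The groups did not overlap for 5 members in the first-named direction in albumen-deprived against sham-manipulated hens (6.73% of all loci), for 4 in albumen-deprived against non-manipulated hens (4.53%), and for 0 when sham-manipulated were set against non-manipulated hens (4.75%). There were 0 members without overlap in the opposite direction in each comparison (6%, 3.84% and 4.93%).

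**Figure D3:**
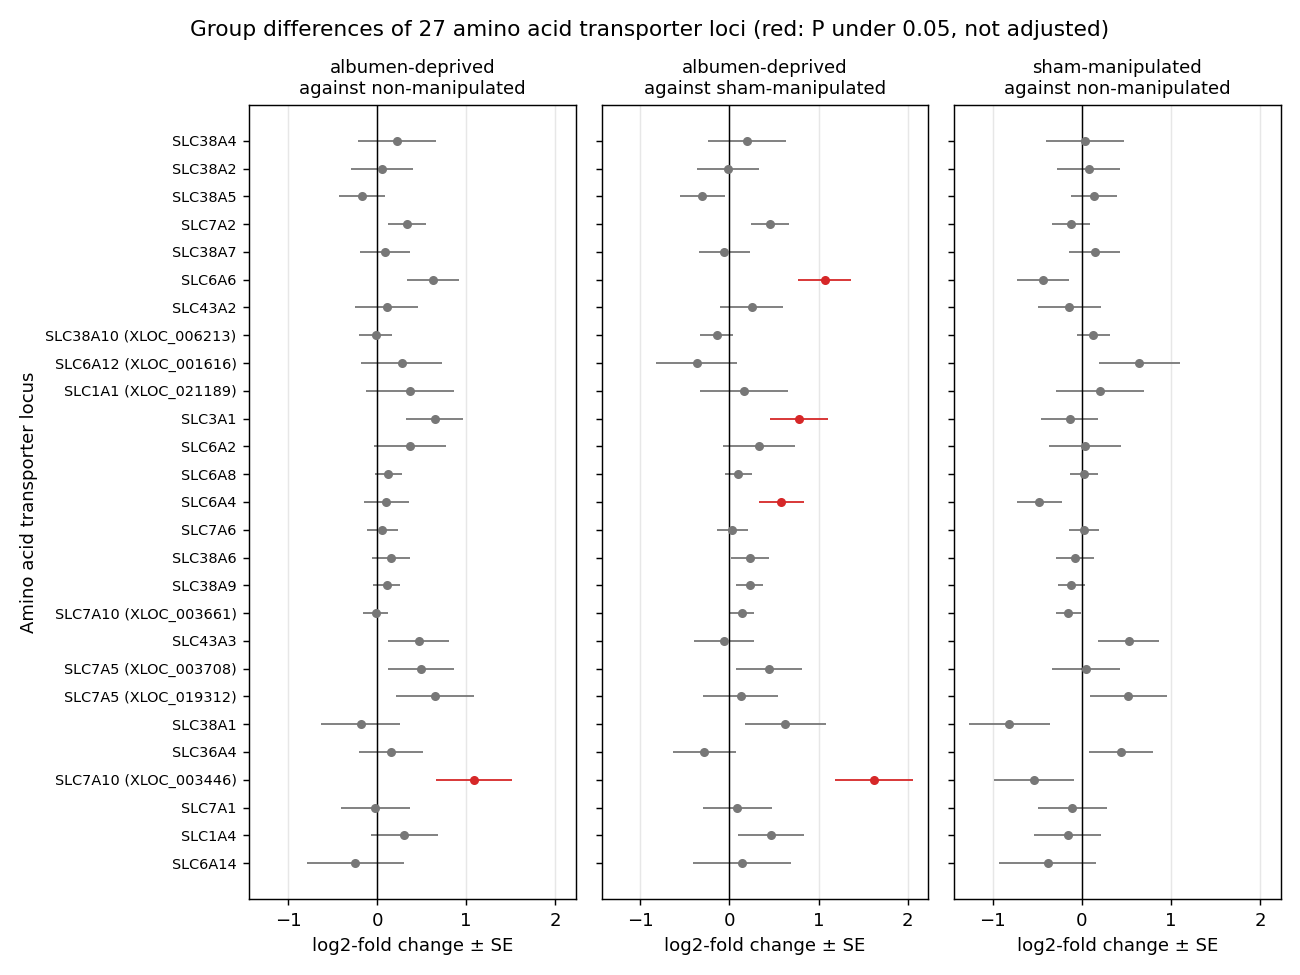
Log2-fold change (edgeR) of each tested transporter locus with its standard error in the 3 comparisons, red where the unadjusted P-value is under 0.05. The red points are SLC6A6, SLC3A1, SLC6A4 and SLC7A10 (XLOC_003446) at 0.58 to 1.63 against sham-manipulated hens, and SLC7A10 (XLOC_003446) at 1.09 against non-manipulated hens.

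Without sham-manipulated 2, 5 members were higher in albumen-deprived hens than in sham-manipulated ones (4.64% of all loci) and 0 were lower (3.56%), but 3 of the 5 were other genes, SLC7A2, SLC38A4 and SLC43A2, while SLC3A1 and SLC6A4 dropped out. Against non-manipulated hens 3 members were then higher (1.96%), SLC7A10 (XLOC_003446) with SLC6A6 and SLC3A1. The sham-manipulated hens were then lower than non-manipulated hens for 3 members (3.52%), SLC38A4, SLC43A2 and SLC7A2, and higher for 0 (3.28%). The hen left out was the highest of all for SLC38A4 and SLC43A2. As it was chosen by its values for the members, the shares of all loci are no fair background for these counts. SLC6A6 and the SLC7A10 locus kept an unadjusted P-value under 0.05 in albumen-deprived against sham-manipulated hens whichever single hen was left out.

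SLC6A6, the sodium- and chloride-coupled taurine transporter, was the highest-ranked member for which every albumen-deprived hen exceeded every other hen. Its locus spans bases 10907537 to 10996964 of chromosome 12 (Galgal4, plus strand) with 19 exons. The non-manipulated hens had 114, 62.4 and 122 CPM, the sham-manipulated hens 94.3, 47.3 and 78.0 CPM and the albumen-deprived hens 149, 171 and 139.7 CPM. The albumen-deprived hens formed the upper end without overlap, and the lowest hens were sham-manipulated 2 and non-manipulated 2. The mean of 153 ± 16.2 CPM (SD, n = 3) compared with 73.2 ± 23.8 CPM in sham-manipulated hens, a log2-fold change of 1.07 (SE 0.29) with a P-value of 0.00524 and an adjusted P-value of 0.561 in edgeR's quasi-likelihood F-test. Against the 99.3 ± 32.2 CPM of non-manipulated hens the log2-fold change was 0.63 (SE 0.29) with an adjusted P-value of 0.99995, and the unadjusted P-value of 0.0592 missed 0.05. The sham-manipulated hens differed from the non-manipulated hens by -0.44 (SE 0.29), which passed 0.05 only without non-manipulated 2. In the study's qPCR on a larger set of hens per group, SLC6A6 showed no significant group difference. Its albumen-deprived mean there was below the sham-manipulated mean. The study also ran qPCR on the sequenced hens, where fold changes of the selected genes, SLC6A6 among them, correlated strongly with RNA-Seq. Its text gives no value of that round for SLC6A6 alone.

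Leaving out 1 hen at a time kept the difference of SLC6A6 between albumen-deprived and sham-manipulated hens at 0.83 to 1.29 on the log2 scale, with P-values up to 0.0188. The lowest value was the one without sham-manipulated 2. Against non-manipulated hens the unadjusted P-value fell under 0.05 when sham-manipulated 2 (0.62, P-value 0.0301) or non-manipulated 3 was left out. The span of a locus on the opposite strand, ENSGALG00000006389, overlaps that of SLC6A6. The unstranded libraries cannot assign reads where exons of both overlap, and exon positions were not compared. The level of ENSGALG00000006389 was 6.20 to 21.3 CPM, and its log2-fold changes in albumen-deprived hens were 0.18 (SE 0.42) against sham-manipulated and -0.46 (SE 0.41) against non-manipulated hens.

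**Figure D4:**
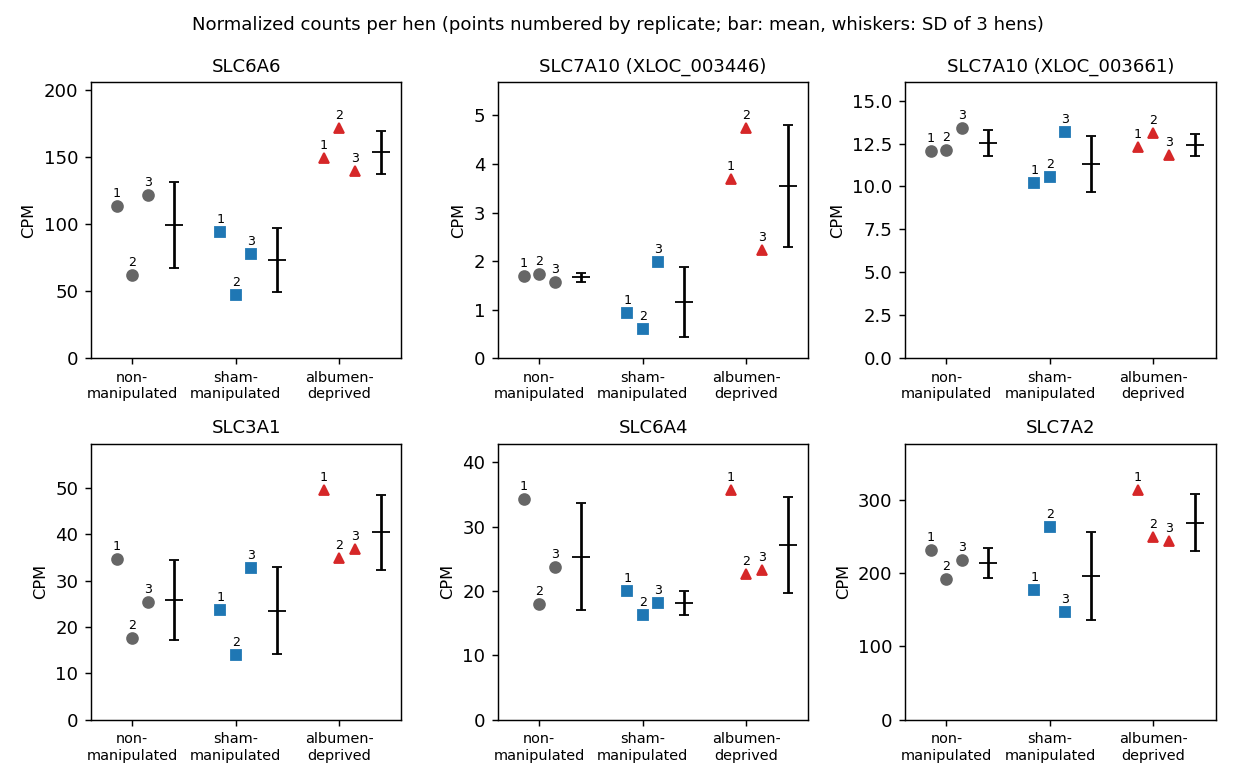
CPM in each hen for SLC6A6, both SLC7A10 loci, SLC3A1, SLC6A4 and SLC7A2, with points numbered by replicate and a bar and whiskers for the mean and SD of the 3 hens of a group. The albumen-deprived hens lie above all 6 others for SLC6A6, SLC3A1 and SLC7A10 (XLOC_003446), whereas the groups of SLC7A10 (XLOC_003661) overlap.

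SLC7A10, in mammals the exchanger of small neutral amino acids including D-serine, is the name of a pair of overlapping loci on opposite strands of chromosome 11. The larger is XLOC_003661 (bases 9573245 to 9605701, minus strand, 9 exons). Its levels were 12.1, 12.1 and 13.4 CPM for non-manipulated hens, 10.2, 10.6 and 13.2 CPM for sham-manipulated hens and 12.3, 13.1 and 11.8 CPM for albumen-deprived hens. The groups overlapped, this was the member with the smallest spread between hens (1.31-fold from lowest to highest), and its log2-fold changes were 0.14 and -0.02 (SE 0.14 each) for albumen-deprived against sham-manipulated and non-manipulated hens.

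The smaller locus (XLOC_003446, bases 9602345 to 9606528, plus strand, 2 exons) was the member with the largest log2-fold changes in both comparisons of albumen-deprived hens, at a low level of 0.806 ± 0.496 RPKM (SD, n = 9). Its read counts were 23, 26 and 28 for the non-manipulated hens, 16, 12 and 30 for the sham-manipulated hens and 57, 83 and 34 for the albumen-deprived hens. Scaled to depth, these were 1.69, 1.73 and 1.57 CPM, 0.925, 0.595 and 1.98 CPM, and 3.68, 4.73 and 2.23 CPM. The albumen-deprived hens did not overlap with either group, although albumen-deprived 3 was close to sham-manipulated 3. The log2-fold change was 1.63 (SE 0.44, adjusted P-value 0.561) against sham-manipulated and 1.09 (SE 0.43, adjusted P-value 0.99995) against non-manipulated hens in edgeR, with unadjusted P-values of 0.00451 and 0.0300.

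Leaving out 1 hen kept the first difference of this locus at 1.30 to 2.22 with P-values up to 0.0207. The second difference ran from 0.83 to 1.33 and its unadjusted P-value exceeded 0.05 in 5 of 9 such fits, without any 1 of the 3 non-manipulated hens (1.11, 1.12 and 1.05 for hens 1, 2 and 3), without albumen-deprived 1 (1.07) or without albumen-deprived 2 (0.83, the highest P-value at 0.116). On the deposited FPKM values with 1 added, limma gave 0.65 and 0.47 for the 2 differences, since adding 1 shrinks the change of a gene at this level. As reads were counted without strand and reads on both loci were left out, any part where exons of both loci overlap adds to neither count. Exon positions were not compared, and a read on the remaining part of XLOC_003446 could come from either strand. Whether RNA of this locus encodes the transporter was not tested.

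SLC3A1, the heavy chain that carries cystine and cationic amino acid exchangers to the membrane, spans bases 24827587 to 24843246 of chromosome 3 (plus strand, 9 exons). Its levels were 34.6, 17.5 and 25.3 CPM in non-manipulated, 23.6, 14.0 and 32.8 CPM in sham-manipulated and 49.6, 34.8 and 36.7 CPM in albumen-deprived hens. All albumen-deprived hens were above all others, but albumen-deprived 2 only just exceeded non-manipulated 1. The means were 25.8 ± 8.55, 23.5 ± 9.39 and 40.4 ± 8.04 CPM (SD, n = 3 each). The log2-fold change was 0.78 (SE 0.32, adjusted P-value 0.693 in edgeR) against sham-manipulated and 0.65 (SE 0.32, adjusted P-value 0.99995) against non-manipulated hens.

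The unadjusted P-value of the first difference was 0.0376, and it exceeded 0.05 in 5 of 9 fits with 1 hen left out. These were the fits without non-manipulated 3 (0.78), sham-manipulated 1 (0.79), sham-manipulated 2 (0.52), albumen-deprived 1 (0.61) and albumen-deprived 3 (0.84), with P-values of 0.0508 to 0.126. The unadjusted P-value against non-manipulated hens, 0.0758, fell under 0.05 without non-manipulated 1 or without sham-manipulated 2 (0.64, SE 0.26). The opposite-strand locus PREPL, a peptidase-like gene that overlaps SLC3A1, moved in the same direction against sham-manipulated hens, with means of 8.40 and 6.04 CPM and a log2-fold change of 0.48 (SE 0.20, unadjusted P-value 0.0381), but had 0.07 (SE 0.20) against non-manipulated hens. Its part in the SLC3A1 values was not tested.

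SLC6A4, the serotonin transporter (chromosome 19, bases 6198872 to 6219800, minus strand, 14 exons), had 34.3, 17.9 and 23.7 CPM in non-manipulated, 20.0, 16.3 and 18.2 CPM in sham-manipulated and 35.7, 22.6 and 23.2 CPM in albumen-deprived hens. The albumen-deprived hens lay above the sham-manipulated hens but within the range of the non-manipulated hens apart from hen 1. The log2-fold change was 0.58 (SE 0.25, adjusted P-value 0.694 in edgeR) against sham-manipulated and 0.10 (SE 0.25) against non-manipulated hens, and sham-manipulated hens differed from non-manipulated hens by -0.48 (SE 0.25). The unadjusted P-value of 0.0460 for the first difference exceeded 0.05 without non-manipulated 3 (0.58), sham-manipulated 1 (0.66), sham-manipulated 2 (0.50), sham-manipulated 3 (0.58) or albumen-deprived 1 (0.33). SLC6A2, the noradrenaline transporter, had 38.9, 30.9 and 55.8 CPM in non-manipulated, 60.0, 17.7 and 51.3 CPM in sham-manipulated and 39.3, 59.5 and 63.6 CPM in albumen-deprived hens, with overlapping groups. Albumen-deprived hens differed from sham-manipulated ones by 0.33 (SE 0.41) on the log2 scale, and by -0.04 (SE 0.28) without sham-manipulated 2.

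The sodium-coupled neutral carriers, which held most of the transporter RNA, did not separate the groups. SLC38A4 had 749, 877 and 612 CPM in non-manipulated, 479, 1380 and 431 CPM in sham-manipulated and 1118, 943 and 557 CPM in albumen-deprived hens. Its highest and its lowest hen were both sham-manipulated, and the log2-fold change of 0.19 (SE 0.44) between albumen-deprived and sham-manipulated hens was smaller than its error. Without sham-manipulated 2 the sham-manipulated mean dropped from 763 to 455 CPM, and the difference became 0.94 (SE 0.29, unadjusted P-value 0.0112, adjusted P-value 0.485 in edgeR), while sham-manipulated against non-manipulated hens went from 0.03 to -0.72 (SE 0.29, unadjusted P-value 0.0360).

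SLC38A2 lies next to SLC38A4 and SLC38A1 on the minus strand of chromosome 1, at bases 30927992 to 30943226, with SLC38A1 at 30879382 to 30903892 and SLC38A4 at 31042894 to 31065566. It had 599, 322 and 411 CPM in non-manipulated, 309, 720.0 and 377 CPM in sham-manipulated and 609, 391 and 386 CPM in albumen-deprived hens. The groups overlapped, with log2-fold changes of -0.02 and 0.06 (SE 0.35 each) against sham-manipulated and non-manipulated hens. Without sham-manipulated 2 the first became 0.43 (SE 0.30), which did not pass the test either. SLC38A1, the system A carrier best known from brain, was at 0.816 ± 0.377 RPKM (SD, n = 9) far below its neighbours. Its log2-fold change of -0.81 (SE 0.46) was the lowest of the tested members when sham-manipulated were compared with non-manipulated hens, and had an unadjusted P-value of 0.108, which fell under 0.05 without non-manipulated 3.

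SLC38A5 on chromosome 12 had 151, 145 and 122 CPM in non-manipulated, 122, 227 and 110.0 CPM in sham-manipulated and 129.7, 131 and 110.1 CPM in albumen-deprived hens. Sham-manipulated 2 was again the only hen far from the rest, and the log2-fold changes of -0.31 and -0.17 (SE 0.25 each) for albumen-deprived against sham-manipulated and non-manipulated hens did not pass the test. Without sham-manipulated 2 the first turned to 0.09 (SE 0.15), and sham-manipulated against non-manipulated went from 0.14 (SE 0.25) to -0.27 (SE 0.15). SLC38A7, which moves glutamine out of lysosomes in mammalian cells, had 33.5, 35.2 and 60.3 CPM in non-manipulated, 58.6, 31.4 and 52.9 CPM in sham-manipulated and 44.6, 38.7 and 54.0 CPM in albumen-deprived hens. SLC38A10, whose counts all fell on the plus-strand locus, had 41.8, 52.8 and 61.3 CPM, then 49.5, 63.3 and 57.8 CPM, then 51.6, 42.0 and 60.7 CPM in these groups. Neither gene separated the groups. The minus-strand SLC38A10 locus lies inside the other one, and since reads on both loci were left out, its counts of 0 do not give the strand of the RNA.

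SLC38A9, the lysosomal arginine sensor upstream of mTORC1, had a narrower spread than the other SLC38 carriers named. The hens had 14.1, 15.9 and 19.6 CPM in the non-manipulated group, 16.7, 15.8 and 13.2 CPM in the sham-manipulated group and 18.5, 17.0 and 18.0 CPM in the albumen-deprived group. The albumen-deprived hens lay above the sham-manipulated hens without overlap, but the log2-fold change was 0.23 (SE 0.15) with an unadjusted P-value of 0.162 and an adjusted P-value of 0.792.

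SLC7A2, the fourth most abundant member (chromosome 4, bases 62631541 to 62657137, minus strand), had 231, 192 and 217 CPM in non-manipulated, 176, 263 and 147 CPM in sham-manipulated and 314, 249 and 243 CPM in albumen-deprived hens. The albumen-deprived hens lay above all non-manipulated hens and above sham-manipulated 1 and 3, whereas sham-manipulated 2 lay among them. The log2-fold change of 0.46 (SE 0.21) against sham-manipulated hens had an unadjusted P-value of 0.0609, and that of 0.33 (SE 0.21) against non-manipulated hens one of 0.155. Without sham-manipulated 2 the first became 0.73 (SE 0.17, unadjusted P-value 0.00257, adjusted P-value 0.416 in edgeR), and sham-manipulated hens then differed from non-manipulated hens by -0.40 (SE 0.17, unadjusted P-value 0.0447). The high-affinity relative SLC7A1 was far lower, at 0.751 ± 0.241 RPKM (SD, n = 9), with log2-fold changes of 0.09 and -0.02 (SE 0.39 each) for albumen-deprived against sham-manipulated and non-manipulated hens.

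SLC43A2, which lets branched-chain and aromatic amino acids pass along their gradient, had 82.7, 86.0 and 50.2 CPM in non-manipulated, 40.1, 105 and 52.8 CPM in sham-manipulated and 97.7, 75.7 and 62.3 CPM in albumen-deprived hens. The groups overlapped and the log2-fold change of 0.25 (SE 0.35) against sham-manipulated hens was within its error. Without sham-manipulated 2 the sham-manipulated mean was 46.5 instead of 66.1 CPM and the difference 0.76 (SE 0.28, unadjusted P-value 0.0249, adjusted P-value 0.559 in edgeR).

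SLC6A12, the carrier of betaine and GABA, was an osmolyte carrier with a wide spread, at 32.9, 44.2 and 88.2 CPM in non-manipulated, 128, 59.4 and 71.8 CPM in sham-manipulated and 82.9, 33.8 and 83.8 CPM in albumen-deprived hens. The log2-fold change of -0.37 (SE 0.46) was the lowest of the members in albumen-deprived against sham-manipulated hens, and its 0.65 (SE 0.46) between sham-manipulated and non-manipulated hens the highest, where the unadjusted P-value of 0.191 fell under 0.05 only without non-manipulated 3. Without sham-manipulated 2 these were -0.58 and 0.85 (SE 0.49 each). SLC1A1, the high-affinity glutamate and aspartate carrier, ran from 22.3 to 68.6 CPM in non-manipulated (68.6, 32.0 and 22.3), from 20.3 to 61.0 CPM in sham-manipulated (20.3, 61.0 and 60.4) and from 34.1 to 68.1 CPM in albumen-deprived hens (68.1, 34.1 and 56.5). From the lowest to the highest hen these genes varied 3.89-fold and 3.38-fold, and their groups overlapped.

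The remaining tested members had overlapping groups and no unadjusted P-value under 0.05 in any comparison of all 9 hens. SLC6A8, the creatine transporter, and SLC7A6, a light chain that exchanges cationic against neutral amino acids, were among the steadiest at 16.5 to 23.2 and 7.68 to 11.0 CPM, with log2-fold changes between 0.03 and 0.13 (SE 0.16 to 0.17) in the 3 comparisons. SLC38A6 ran from 24.6 to 42.8 CPM. The name SLC7A5, the leucine-preferring light chain of system L, was on 2 loci, 1 on chromosome 11 at 1.60 to 4.07 CPM and 1 on an unplaced scaffold at 0.560 to 2.17 CPM, and reads that match both cannot be assigned. SLC43A3, SLC36A4, SLC1A4 and SLC6A14 were at 3.34 to 8.40, 1.27 to 3.95, 0.988 to 2.30 and 0.198 to 1.33 CPM. Without non-manipulated 3, SLC43A3 was higher in both manipulated groups than in non-manipulated hens, and without sham-manipulated 1, SLC1A4 was higher in albumen-deprived hens than in sham-manipulated ones, in each case at an unadjusted P-value under 0.05.

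Genes that answer to amino acid supply or use amino acids were examined beside the carriers. Of 14 tested genes of the amino acid response, the ATF4 program that cells start when amino acids are scarce, 1 was lower in albumen-deprived than in non-manipulated hens at an unadjusted P-value under 0.05 (1.57% of all tested loci were) and 0 were called in the other comparisons. This was ASNS, asparagine synthetase, with 27.7, 124 and 51.0 CPM in non-manipulated, 53.8, 54.3 and 35.0 CPM in sham-manipulated and 36.8, 29.0 and 33.4 CPM in albumen-deprived hens, where non-manipulated 2 was far above the rest and non-manipulated 1 below all others. The log2-fold change was -1.03 (SE 0.45, adjusted P-value 0.99995 in edgeR). Without sham-manipulated 2 its unadjusted P-value exceeded 0.05, and PSAT1 of serine synthesis (-0.47, SE 0.17) was called in its place. The median of the list was -0.14 in albumen-deprived against non-manipulated, -0.03 in albumen-deprived against sham-manipulated and -0.15 for sham-manipulated over non-manipulated hens.

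Of 26 tested genes that relay amino acids to mTORC1, the kinase complex that couples them to growth, 4 were higher in albumen-deprived hens than in sham-manipulated ones at an unadjusted P-value under 0.05 and 0 lower, against 4.11% and 3.02% of all tested loci, while the median of the list was 0.00. They were FNIP1 (0.43, SE 0.12) and FNIP2 (0.55, SE 0.16), partners of folliculin, WDR59 (0.36, SE 0.15), a subunit of the GATOR2 complex, and TSC2 (0.41, SE 0.17), which restrains the complex. TSC1, the partner of TSC2, was higher than in non-manipulated hens (0.32, SE 0.11), with 27.9, 28.5 and 28.1 CPM in non-manipulated, 33.0, 30.1 and 26.8 CPM in sham-manipulated and 34.6, 34.2 and 36.5 CPM in albumen-deprived hens. The Rag GTPase RRAGB was the 1 gene called between sham-manipulated and non-manipulated hens (0.29, SE 0.12). Of all tested loci, 1.66% were higher in albumen-deprived and 2.3% in sham-manipulated than in non-manipulated hens. Without sham-manipulated 2 there were 3 higher in the first comparison (4.64% of all loci), FNIP1 (0.49, SE 0.13), FNIP2 (0.44, SE 0.17) and SESN1 (0.54, SE 0.17), and RRAGB was no longer called. SESN1 was then also lower in sham-manipulated than in non-manipulated hens (-0.40, SE 0.17), as were 3.52% of all loci. No adjusted P-value in this list was under 0.05.

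Of 45 tested loci for amino acid breakdown and nitrogen handling, 2 were higher (KMO 0.30, SE 0.11, and ALDH4A1 0.30, SE 0.13) and 2 lower (PRODH -0.89, SE 0.38, and GLUL) in albumen-deprived hens than in sham-manipulated ones at an unadjusted P-value under 0.05, where the shares of all tested loci were the 4.11% and 3.02% given above. KMO acts in tryptophan breakdown, and PRODH and ALDH4A1 catalyse the first and the last step from proline to glutamate. GLUL, glutamine synthetase, which makes glutamine, a substrate of SLC38A5 and SLC38A7, had 265, 295 and 253 CPM in non-manipulated, 340.2, 594 and 429 CPM in sham-manipulated and 253, 297 and 166 CPM in albumen-deprived hens. The sham-manipulated hens lay above all others, with log2-fold changes of -0.93 (SE 0.25, adjusted P-value 0.561 in edgeR) for albumen-deprived against sham-manipulated hens and 0.75 (SE 0.25) for sham-manipulated over non-manipulated hens. Without sham-manipulated 2 these were -0.69 (SE 0.23) and 0.50 (SE 0.23), of which the second missed 0.05 (unadjusted P-value 0.0624), and of 44 loci then tested 6 were higher (4.64% of all loci) and 1 lower (3.56%) than in sham-manipulated hens, KMO but not ALDH4A1 among the 6. In the study's qPCR on a larger set of hens per group, GLUL showed no significant group difference.

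FAH, the last enzyme of tyrosine breakdown, was higher than in non-manipulated hens (53.3 ± 3.23 CPM) in both albumen-deprived (75.7 ± 4.12 CPM) and sham-manipulated hens (73.5 ± 7.11 CPM, SD, n = 3 each), and 1 locus named for COL6A2 and FTCD was higher in sham-manipulated than in non-manipulated hens (0.38, SE 0.16). With GLUL, 3 of 45 loci were higher in sham-manipulated and 1 in albumen-deprived than in non-manipulated hens, against 2.3% and 1.66% of all tested loci. Without sham-manipulated 2, 3 of 44 loci (FAH, GLUD1 and DMGDH) were higher in albumen-deprived than in non-manipulated hens (1.96% of all loci) and 0 lower (1.8%). Sham-manipulated hens were then higher than non-manipulated hens for 2 loci, FAH and GLUD1 (3.28%). They were lower for 2, KMO and 1 locus named for CHST4 and TAT (3.52%). Of 10 tested amino acid carriers of other families, 1 was called, the mitochondrial glutamate carrier SLC25A22, higher in albumen-deprived hens than in sham-manipulated ones (0.40, SE 0.17), where 4.11% of all tested loci were higher. At 0.24 (SE 0.16) it was no longer called without sham-manipulated 2. SLC16A10, a carrier of aromatic amino acids, was highest in sham-manipulated 2 as were SLC38A4, SLC38A2 and SLC38A5, with 51.1, 123 and 53.0 CPM in the sham-manipulated hens and 49.5 to 83.7 CPM in the non-manipulated and albumen-deprived hens. Without sham-manipulated 2 it was higher in albumen-deprived hens than in both other groups at an unadjusted P-value under 0.05 (0.47, SE 0.17, and 0.42, SE 0.15). It was then the 1 of 10 carriers called, where 4.64% of all loci were higher against sham-manipulated and 1.96% against non-manipulated hens.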

How the data were processed

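Groups and replicates followed the sample labels (3 biological replicates per group, from separate hens). Per the labels and the study's methods, the authors mapped single-end, unstranded reads to Galgal4 with TopHat2 2.0.8b, kept primary alignments of sufficient mapping quality, merged Cufflinks 2.1.1 models with the reference annotation, and deposited the counts per locus from HTSeq 0.5.4p3 without normalization, leaving out reads on several loci. They also deposited locus length in bases, GC content in percent, and FPKM values of 13599 loci after quantile normalization, first within bins of GC content and then across samples. Of the members, 29 are among these loci. The authors' table of comparisons, with fold changes, P-values and calls, was not used for the values given here. The study's qPCR results, its calls of SLC6A6 and GLUL and its listing under amino acid metabolism are cited as published.

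Here the counts were scaled by TMM (factors 0.914 to 1.12). Loci above 1 CPM in 3 or more of the 9 libraries were fitted in edgeR (4.0.16, R 4.3.3) with all hens and 1 coefficient for each group (common dispersion 0.0630, 6 residual degrees of freedom), and tested by the quasi-likelihood F-test, with Benjamini-Hochberg adjustment over 12324 loci. Standard errors were the size of the log2-fold change divided by the square root of F. CPM are TMM-scaled, apart from those of the filter and of the bound for loci without reads, which use total counts alone. Log2 CPM used a prior count of 2. The 3 hens of a group against 3 allow no exact permutation P-value below 0.1 for a single gene, so none is given. Replicates were no duplicates (chi-square per degree of freedom 21.6 to 72.9). The FPKM values were whole multiples of 1 read per library in 100% of cases (tolerance 0.01), so that normalized counts could be recovered for an alternative. The fit was also run on simulated data, with changes larger than those of the members in all 9 hens. These changes were placed only in loci with higher levels than SLC7A10 (XLOC_003446), so the run does not cover members at that level.

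Values per hen are given for members with an unadjusted P-value under 0.05 in any comparison, the 10 members of highest mean RPKM, SLC6A6, both SLC7A10 loci and SLC3A1, and SLC6A2 and SLC38A9 were added after their values were seen, as were the genes outside the members. The members, gene lists and marker lists were chosen with earlier results of these data known. Alternatives were DESeq2 1.42.0 size factors and Wald test, the loci the authors kept, no filter, the likelihood ratio test, limma 3.58.1 on log2(FPKM + 1), the authors' normalized counts, the 2 groups alone, a replicate block, a term for the last 3 library codes, and each hen left out. No gene or protein sequence was used here.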

Additional observations from a re-analysis of the deposited data

How the results depend on the processing

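The number of members with an unadjusted P-value under 0.05 was 3 to 5 under all 11 alternatives in albumen-deprived against sham-manipulated hens (4 in the report). It was 2 to 5 with 1 hen left out, and 2 without non-manipulated 3 or albumen-deprived 1. The shares of all loci in this comparison were 6.08% to 7.19% under the alternatives and 5.15% to 8.2% with 1 hen left out. In all comparisons 27 members were tested, but 29 on the authors' loci, FPKM or normalized counts and 43 with no filter. In albumen-deprived against non-manipulated hens (1 in the report) the number of members was 2 with no filter, with the likelihood ratio test, with DESeq2's Wald test and with limma on FPKM, each adding SLC6A6, 3 with the 2 groups alone, and 0 to 3 with 1 hen left out (0 without non-manipulated 2, albumen-deprived 1 or albumen-deprived 2, and 3 without sham-manipulated 2). The shares of all loci there were 2.92% to 3.82% under the alternatives and 2.45% to 4.16% with 1 hen left out. The replicate block gave 2 members (SLC6A6 and SLC3A1) in that comparison, also with the authors' normalized counts, and 1 (SLC6A4, lower) between sham-manipulated and non-manipulated hens in both block fits, where the report has 0 and leaving out 1 hen gave 0 to 3 (3 without non-manipulated 3 or sham-manipulated 2). Between these 2 groups the shares of all loci were 4.87% and 5.32% in the block fits and 3.38% to 6.79% with 1 hen left out. Hens that share a number are not a pair in the labels, and their deviations from the group means correlated at -0.16 to 0.24. The differences of SLC6A6, SLC7A10 (XLOC_003446), SLC3A1 and SLC6A4 that had an unadjusted P-value under 0.05 in the report kept their sign throughout. Outside these, SLC3A1 in sham-manipulated against non-manipulated hens went from -0.14 (SE 0.32) to 0.12 (SE 0.29) without sham-manipulated 2. SLC6A6 against sham-manipulated hens kept a P-value under 0.05 under all 11 alternatives (1.06 to 1.26), with 0.0844 as the smallest adjusted P-value of any member. SLC6A4 lost it under 3 of 11 and SLC7A10 (XLOC_003446) against non-manipulated hens in both block fits, and the cause was not tested. The alternatives all use the same 9 hens, and the study's qPCR on more hens showed no significant group difference of SLC6A6. Of the 10 highest levels, 9 were also among the 10 highest by FPKM, and all 10 whichever hen was left out. A correlation of heavy and light chains was not run, since no pair had both above the filter, and no promoter was searched. Loci at 0 to 3 counts per hen carry no comparison, and the precision for loci near 1 CPM is limited by counting error.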
